A study of Mus musculus with 6 samples.

Results

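The interleukin-6 family genes Il6, Lif, Osm, Il6ra, Il6st, Osmr, Lifr, Socs3 and Stat3, and the serum amyloid A gene Saa3, were followed in cultured mouse hepatic stellate cells. They are 10 of the 55401 genes in the deposited table, chosen by symbol with earlier results of these data known. Each symbol matched 1 row. Hepatic stellate cells are the retinoid-storing pericytes of the liver, which turn into collagen-producing myofibroblasts when plated. The cells came from mice with 1 disrupted copy of S100a16 (S100a16+/-) and from wild type (WT) mice, both of the C57BL/6J strain, and all were kept for 7 days in medium with fetal bovine serum. There were 3 libraries of each genotype. The labels give no age or sex, do not say how the S100a16 allele was made, and do not say whether each library is a separate animal, so p-values measure the spread between these libraries, which may be technical.

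Cytokines of the interleukin-6 family act through receptors that share the signalling subunit gp130, the product of Il6st. Interleukin-6 binds the product of Il6ra first, whereas leukaemia inhibitory factor and oncostatin M pair gp130 with the products of Lifr and Osmr. The kinases bound to these receptors phosphorylate the transcription factor STAT3, which turns on Socs3, and the SOCS3 protein then blocks gp130. In the liver this pathway drives the acute-phase response of hepatocytes, of which the serum amyloid A proteins are part. Mouse Saa3 differs from Saa1 and Saa2 in that it is made largely outside hepatocytes, by macrophages and stromal cells among others.

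Library totals ran from 61979103 to 76291481 counts. S100a16, the targeted gene, had an FPKM (a count scaled by the authors for gene length and library size) of 17.7 to 30.0 in S100a16+/- cells and 56.8 to 58.8 in WT. It fell by 1.35 on the log2 scale (edgeR adjusted p = 0.0313), a call that leaving out any library other than S100a16+/- replicate 3 ended (edgeR adjusted p from 0.105 to 0.143). In its cell type markers S100a16+/- replicate 3 was unlike the other 5 libraries, which were not all alike either. The summed FPKM of 14 stellate cell and myofibroblast markers was 144 there, against 1067 to 1095 in the other S100a16+/- libraries and 929 to 1045 in WT. The summed FPKM of 10 hepatocyte markers was 419 there, against 8.51 to 8.69 in the other S100a16+/- libraries and 59.1 to 88.7 in WT. For 10 endothelial markers, S100a16+/- replicates 1 and 2 stood apart, at 694 and 661, against 1787 in replicate 3 and 1377 to 1528 in WT. Leaving out replicate 3 thus does not make the genotypes alike in cell type markers. The stellate cell markers Lrat, Reln, Lhx2, Ngfr and Gfap were below the filter on low values, which asked for 3 or more libraries with an FPKM of 1 or higher. Macrophage transcripts were abundant in both genotypes: Lyz2 had a mean FPKM of 4464 ± 115 (SD, n = 3) in WT, against 417 ± 25.3 (SD, n = 3) for the myofibroblast actin gene Acta2. In such mixed RNA, fewer cells of a type and less RNA per cell cannot be told apart.

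Saa3 was higher in every S100a16+/- library than in every WT library, by about the same factor in each. The cytokine, receptor and STAT3 genes did not move with it over the 6 libraries. Of the 10 genes, 8 passed the filter, and Il6 and Osm did not. Saa3 was the only member called at an adjusted p under 0.05, 1 of 8 or 12.5%, where 4.46% of all 12766 genes tested were called. The median log2 change of the 8 was 0.04, beside 0.00 for all genes tested. Groups that did not overlap were also seen in Saa3 alone of the 10 genes, and in 31.4% of all genes tested. With S100a16+/- replicate 3 left out, 3 of the 8 were called: Saa3 was higher, and Socs3 and Il6ra were lower. The share of all genes called was then 32.2%, with 15.8% higher and 16.4% lower, so this count stood close to the background.

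**Figure D1:**
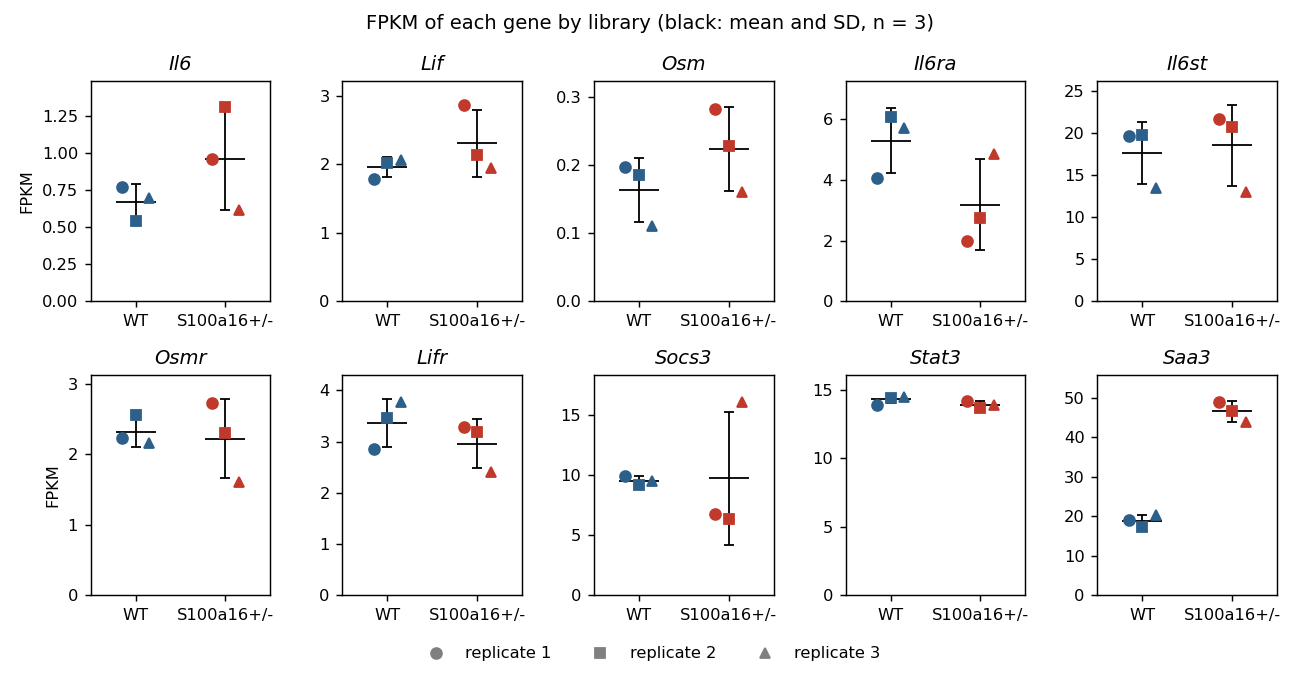
FPKM of the 10 genes (vertical axes, each from 0) in WT and S100a16+/- libraries, with circles, squares and triangles for replicates 1, 2 and 3, and black bars for the mean and SD of 3 libraries. The 3 S100a16+/- points of Saa3, at 43.9 to 49.1, lie above all WT points, while in Socs3 replicate 3 lies above and replicates 1 and 2 below the WT points.

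The 3 ligand genes had the lowest mean FPKM of the 10 in WT, and in S100a16+/- cells Lif stood just above Osmr. Il6, which encodes interleukin-6 (chr5:30013114-30019981, plus strand), had 184, 249 and 105 counts in S100a16+/- replicates 1 to 3, where WT had 138, 113 and 138. In FPKM these were 0.960, 1.31 and 0.615 against 0.769, 0.542 and 0.699. S100a16+/- replicates 1 and 2 lay above the WT libraries and replicate 3 between them, so the groups overlapped. Only 1 library reached an FPKM of 1, and Il6 was fitted only in the alternative with no filter, which called 0.858% of 28336 genes. Its log2 change there was 0.57 with a 95% interval from -0.22 to 1.36 (edgeR adjusted p = 0.519).

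Lif, the gene of leukaemia inhibitory factor, stood at 2.87, 2.13 and 1.95 FPKM in S100a16+/- cells and at 1.79, 2.02 and 2.07 in WT. Its log2 change of 0.29 (95% interval -0.14 to 0.73) did not pass the test (edgeR adjusted p = 0.399). The highest value belonged to S100a16+/- replicate 1, and the other 5 libraries were within the range 1.79 to 2.13. Osm, the oncostatin M gene, which myeloid cells are known to express, gave 51, 41 and 26 counts in S100a16+/- cells, with 34, 37 and 21 in WT. With no filter its log2 change was 0.47 (95% interval -0.53 to 1.47, edgeR adjusted p = 0.618), which is within the spread between libraries. Osm and Lif lie side by side on the plus strand of chromosome 11, with 16530 bases and no other gene of the table between them.

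The 250 bases before the Il6 start site are shown because the κB and C/EBP sites known in this promoter can be read in them. The sequence is from RefSeq on GRCm38.p6, chr5:30012864-30013113, plus strand, and the capitals mark 1 match to the C/EBP motif TTGCNNAA, on the other strand, followed by 1 match to the NF-kappa B consensus.
Il6: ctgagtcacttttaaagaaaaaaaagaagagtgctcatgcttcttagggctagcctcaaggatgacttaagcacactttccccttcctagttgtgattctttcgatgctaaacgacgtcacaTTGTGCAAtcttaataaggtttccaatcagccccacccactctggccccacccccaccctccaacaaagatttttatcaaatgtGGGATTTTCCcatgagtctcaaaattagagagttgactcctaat
Of 32851 RefSeq promoter windows of 300 bases, 10.8% held the C/EBP motif and 8.46% the NF-kappa B consensus on either strand, so a match is no evidence of binding.

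Among the receptor genes, Il6ra differed most between the genotypes, and only in 2 of the 3 S100a16+/- libraries. Il6ra, the interleukin-6 binding receptor (chr3:89864059-89913196, minus strand), had an FPKM of 1.97, 2.73 and 4.85 in S100a16+/- replicates 1 to 3, where WT had 4.07, 6.08 and 5.72. Relative to the WT mean, replicates 1 and 2 reached 37.3% and 51.7%, while replicate 3 reached 91.6% and lay inside the WT range. The mean was 3.18 ± 1.49 against 5.29 ± 1.07 (SD, n = 3 each), and the log2 change of -0.69 (95% interval -1.53 to 0.16) did not pass the test (edgeR adjusted p = 0.314). Without S100a16+/- replicate 3 the log2 change was -1.10 (edgeR adjusted p = 0.0166). Hepatocytes are known to express Il6ra, and the summed FPKM of their markers, 8.51, 8.69 and 419 in replicates 1 to 3, was also highest in replicate 3. The sum of 10 endothelial markers, Cdh5 and Stab2 among them, was likewise highest there, at 694, 661 and 1787 against 1377 to 1528 in WT. Among the WT libraries Il6ra was lowest in replicate 1, where the hepatocyte and endothelial sums were highest, at 88.7 and 1528. The part of either cell type in the Il6ra values was not tested. The antisense gene Gm42809, which overlaps Il6ra, had 0 to 4 counts a library.

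Il6st, which encodes gp130, was the most abundant receptor gene and did not follow genotype. Replicates 1 to 3 had 21.7, 20.7 and 13.0 FPKM among S100a16+/- cells and 19.6, 19.8 and 13.4 among WT cells, so 1 library of each genotype was low. The log2 change was 0.13 (95% interval -0.50 to 0.75, edgeR adjusted p = 0.818). WT replicate 3 stood at 68.0% of the mean of WT replicates 1 and 2. Of the 4603 tested genes whose mean FPKM was 10 or higher, 75 (1.63%) were as low or lower in that library relative to those 2, a count made after the values were seen.

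The receptor genes Osmr and Lifr are neighbours on chromosome 15, 215644 bases apart with the predicted gene Gm38282 between them, and both were lowest in S100a16+/- replicate 3. Osmr, the oncostatin M receptor gene, stood at 2.73, 2.30 and 1.61 FPKM in S100a16+/- cells and at 2.23, 2.55 and 2.16 in WT. Lifr, the gene of the leukaemia inhibitory factor receptor, had 3.29, 3.18 and 2.41 against 2.85, 3.47 and 3.78. Neither differed beyond the spread between libraries. The log2 change of Osmr was -0.01 (95% interval -0.51 to 0.50, edgeR adjusted p = 0.991) and that of Lifr -0.13 (95% interval -0.54 to 0.28, edgeR adjusted p = 0.698). In the same replicate 3 the stellate cell and myofibroblast markers had a median log2 ratio to the WT mean of -2.44, and the part of this in its low Osmr and Lifr was not tested.

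Stat3, the transcription factor that relays the signal of the family, had nearly the same level in all 6 libraries. S100a16+/- cells had 14.2, 13.7 and 13.9 FPKM, and WT had 13.9, 14.4 and 14.5. The highest was 1.06 times the lowest, and 50 of the 12766 genes tested (0.392%) had a smaller ratio. The log2 change was 0.02 (95% interval -0.11 to 0.14, edgeR adjusted p = 0.884), which limits a difference to 1.11-fold higher or 0.926 of WT. Stat3 overlaps Stat5a on the opposite strand, and the sources used here do not say whether counting used the strand. Stat5a had 638 to 1097 counts a library, against 9110 to 11620 for Stat3.

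Socs3, the feedback inhibitor that STAT3 induces (chr11:117966079-117970047, minus strand), split the S100a16+/- libraries. Its FPKM was 6.78 and 6.32 in replicates 1 and 2, 16.1 in replicate 3, and 9.90, 9.21 and 9.54 in WT. The first 2, at 71.0% and 66.1% of WT on average, were below every WT library, and replicate 3, at 169%, was above every one. Over all 6 libraries the log2 change was 0.07 (95% interval -0.83 to 0.97, edgeR adjusted p = 0.934), and it turned negative without S100a16+/- replicate 3, at -0.48 (edgeR adjusted p = 0.00511). It was also negative, uncalled, by limma on log2(FPKM + 1), at -0.09. Hepatocyte markers were low in the same replicates 1 and 2 and high in replicate 3, and their part in the Socs3 values was not tested. A 29-base stretch before the RefSeq start of Socs3 (GRCm38.p6, chr11:117969502-117969530, minus strand) is shown because it holds the only match to the STAT motif TTCNNNGAA in the promoter windows of the members, in capitals. It lies inside the gene as the table draws it.
Socs3: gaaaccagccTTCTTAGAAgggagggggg
The motif was found in 8.3% of all RefSeq promoter windows. A window was given for 9 of the 10 genes, and Osm had none.

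**Figure D2:**
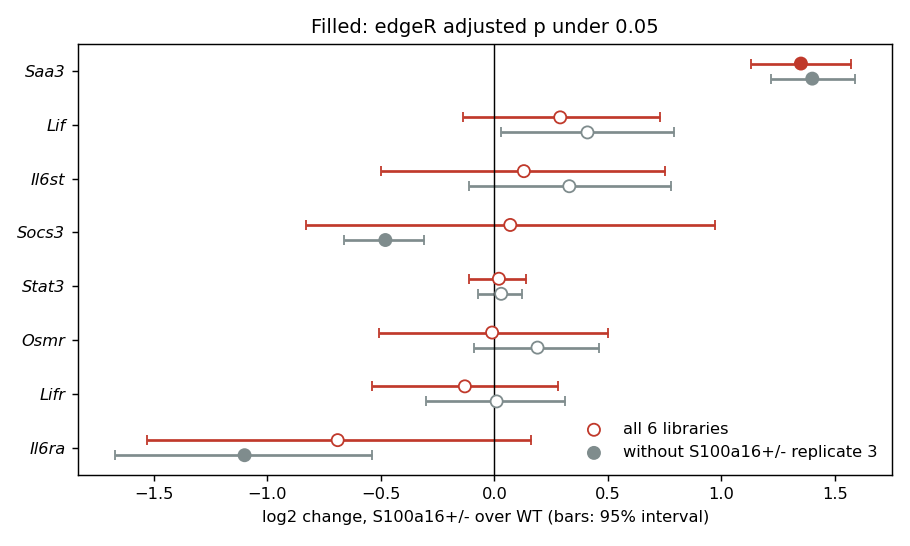
Log2 change of the 8 tested genes, S100a16+/- over WT, over all 6 libraries (red) and without S100a16+/- replicate 3 (grey), with 95% intervals from edgeR and filled points for an adjusted p under 0.05. Saa3 is at 1.35 and 1.40, Stat3 at 0.02 and 0.03, and Socs3 moves from 0.07 to -0.48.

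Saa3 (chr7:46711998-46715700, minus strand), which encodes an acute-phase apolipoprotein of inflamed tissue, had an FPKM of 49.1, 46.8 and 43.9 in S100a16+/- replicates 1 to 3, where WT had 19.1, 17.3 and 20.4. All 3 S100a16+/- libraries lay between 232% and 259% of the WT mean, including replicate 3. The means were 46.6 ± 2.60 and 18.9 ± 1.54 (SD, n = 3 each; exact permutation p = 0.1, two-sided), and 0.1 is the smallest p that 3 against 3 libraries allow. In the fit to all genes Saa3 rose by 1.35 ± 0.09 (SE) in log2 (edgeR adjusted p = 0.00399), or 2.55-fold with a 95% interval from 2.19 to 2.97. The call held with each library left out in turn, at log2 changes of 1.28 to 1.41 (edgeR adjusted p from 0.000182 to 0.0395). By FPKM, Saa3 ranked from 907 to 997 among the 12766 tested genes in the S100a16+/- libraries and from 2364 to 2784 in WT.

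The 250 bases before the Saa3 start site are shown because Saa3 is the member that rose. They are from RefSeq on GRCm38.p6, chr7:46715677-46715926, minus strand, and the capitals mark the 1 match to the C/EBP motif, on the other strand. The NF-kappa B consensus and the STAT motif TTCNNNGAA had no match in this window, which says only that these letters are not in it.
Saa3: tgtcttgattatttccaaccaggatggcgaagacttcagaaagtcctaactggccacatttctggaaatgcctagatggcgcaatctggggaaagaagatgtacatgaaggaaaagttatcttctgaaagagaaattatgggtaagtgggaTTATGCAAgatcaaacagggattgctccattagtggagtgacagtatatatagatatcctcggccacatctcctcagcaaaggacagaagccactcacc
Among the 9 genes with a window, the C/EBP motif was found in 2, Il6 and Saa3, the NF-kappa B consensus in 2, Il6 and Lif, and the STAT motif in 1, Socs3.

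The other serum amyloid A genes of the cluster on chromosome 7 were nearly silent. Saa1 had 4 counts in WT replicate 1 and 0 in the other 5 libraries, and Saa2 had 0 in all 6, which allows up to 3 counts, or 0.0393 to 0.0484 CPM (counts scaled to the library total). Saa3 itself had 127 to 142 CPM in the S100a16+/- libraries and 50.2 to 59.2 in WT. Saa4, the constitutive form of hepatocytes, had 0, 0 and 136 counts in S100a16+/- replicates 1 to 3, where WT had 8, 8 and 12. Its high library was the one rich in hepatocyte markers, where Saa3 was the lowest of the S100a16+/- values. Saal1, the gene nearest to Saa3 at 1318 bases and named after its values were seen, differed by 0.12 in log2 (edgeR adjusted p = 0.703).

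Macrophage markers differed between the groups in part. Of 15 tested, Cd5l, Marco and Adgre1 rose and none fell over the 6 libraries (edgeR), or 20%, beside 4.46% of all genes tested. Without S100a16+/- replicate 3, 6 were called higher and 6 lower, the lower ones being Cd163, C1qa, C1qb, C1qc, Mrc1 and Timd4. Of all genes tested, 15.8% were then higher and 16.4% lower. The summed FPKM of the list, in which Lyz2 was the largest term, was 13273 to 18155 in the S100a16+/- libraries and 10455 to 11016 in WT. Its median log2 ratio to the WT mean was -0.05, 0.08 and 0.09 in S100a16+/- replicates 1 to 3. Of 8 neutrophil markers, S100a8 rose, and S100a9, Ly6g and Retnlg had 0 counts in all 6 libraries. The neutrophil list summed to 28.5 to 31.5 FPKM in the S100a16+/- libraries and 16.7 to 19.8 in WT. Csf3r, the other neutrophil marker tested, was not called (edgeR adjusted p = 0.595). Its FPKM was 16.1, 16.5 and 21.9 in S100a16+/- replicates 1 to 3 against 17.4, 17.8 and 16.1 in WT. Mpo, Elane and Cxcr2 had 0 to 9 counts a library. What part macrophages or neutrophils have in the Saa3 rise was not tested. Saa3 kept within 43.9 to 49.1 FPKM over the 3 S100a16+/- libraries. Over these the hepatocyte sum ran from 8.51 to 419 and the stellate cell sum from 144 to 1095. The macrophage sum was 16922, 18155 and 13273 in replicates 1 to 3, lowest in replicate 3, as Saa3 was. The part of any cell type in the Saa3 values was not tested.

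Of the tested genes that were ranked, the 5 whose levels ran closest to Saa3 over the 6 libraries were Rragd, Plek, Gdf3, Fabp5 and Fpr1. Symbols of predicted genes and pseudogenes (Gm and digits, Rik or -ps) were left out before ranking. Likeness was the mean absolute difference between profiles of log2(CPM + 1), each taken relative to its WT mean. It was 0.0792 for Rragd, a lysosomal GTPase gene of amino acid sensing, and 0.0801 for Plek, which encodes pleckstrin of leukocytes and platelets. The others were Gdf3, a growth factor gene of the TGF-beta superfamily, at 0.0866, Fabp5, a fatty acid binding protein gene, at 0.0898, and the formyl peptide receptor gene Fpr1, at 0.0964. Being picked for this likeness, they are a description. Gdf3 passed the filter only through the S100a16+/- libraries, at 1.15 to 1.27 FPKM against 0.279 to 0.371 in WT, and at such levels the added 1 shrinks its difference, which was 1.88 in the fit. Fpr1 was the most abundant of them, with 172, 187 and 184 FPKM in S100a16+/- cells against 72.5, 75.3 and 74.9 in WT.

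**Figure D3:**
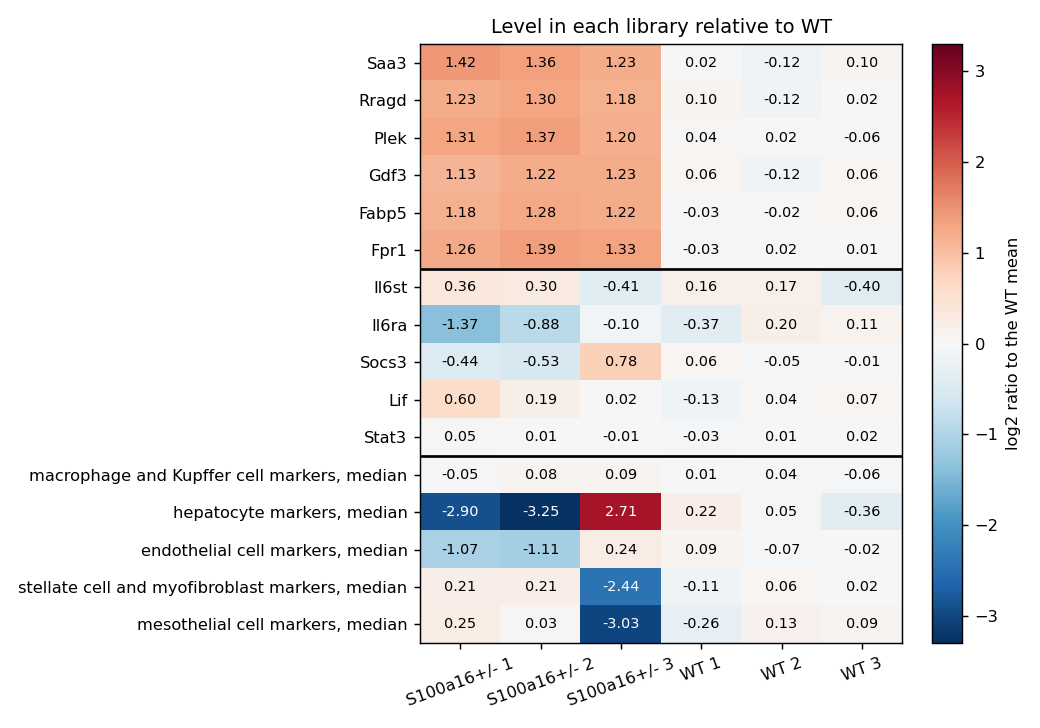
Level in each library relative to the WT mean, as a difference in log2(CPM + 1) for Saa3 and its 5 nearest genes (top) and as a log2 ratio of CPM for 5 other members (middle) and for the median of 5 marker lists (bottom). Saa3 is at 1.42, 1.36 and 1.23 in the S100a16+/- libraries, whereas the hepatocyte median is at -2.90, -3.25 and 2.71 and the stellate cell median at 0.21, 0.21 and -2.44.

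In WT, per length of gene, the order of mean FPKM was Saa3 at 18.9, Il6st at 17.6, Stat3 at 14.3, Socs3 at 9.55, Il6ra at 5.29, Lifr at 3.37, Osmr at 2.31, Lif at 1.96, Il6 at 0.670 and Osm at 0.164. The ranges of Saa3 and Il6st overlapped, as did those of Il6st and Stat3, and all later neighbours were apart. In the S100a16+/- libraries Saa3, at a mean of 46.6, no longer overlapped Il6st, at 18.5. The neighbours Stat3 and Socs3, Il6ra and Lifr, Lifr and Lif, and Lif and Osmr then overlapped, as Il6st and Stat3 did.

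The rest of the pathway was read from 8 lists of 101 genes, of which 82 were tested. The lists were chosen with earlier results of these data known, so the shares called in them are a description. In all 7 rose and 2 fell, or 11.0%, beside 4.46% of all genes tested. Those called were in the lists of STAT3 targets, acute-phase genes, upstream inducers and serum amyloid A receptors. No gene was called among 4 other ligands, 5 other receptors and sheddases, 11 signal transducers and 8 feedback inhibitors tested, which makes 0 of 28 by edgeR. At an unadjusted p under 0.05 there were 6 (21.4%), beside 22% of all genes tested, and DESeq2 called 2, Il27 among them, beside 14.8% of all genes. Their list medians of the log2 change were 0.02, 0.20, -0.03 and -0.12. The most abundant were the shared subunit gene Ebi3 (44.4 ± 5.42 FPKM in S100a16+/- cells against 45.4 ± 1.64 in WT, SD, n = 3 each), Clcf1, the receptor sheddase genes Adam10 and Adam17, Grb2, Jak1, and the phosphatase genes Ptpn6 and Ptpn1. Genes called without S100a16+/- replicate 3 included Il27, Il11ra1, Adam17, Tyk2, Stat5a, Jak2 and Ptpn6, which were higher, and Socs2, which was lower (edgeR adjusted p under 0.05). By list these calls were 1 higher and 1 lower of 4, 2 higher of 5, 3 higher of 11, and 1 higher and 1 lower of 8. In that fit 32.2% of all genes tested were called.

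Of 20 genes that STAT3 is known to induce, 1 rose and 1 fell, or 10%, beside 4.46% of all genes tested. The list median was 0.16. Fgl2, a prothrombinase and immune regulator gene, rose by 0.63 (edgeR adjusted p = 0.0298), with an FPKM of 5.17, 5.25 and 4.96 against 3.75, 3.26 and 3.31. Birc5, the survivin gene of dividing cells, fell by 0.72 on the log2 scale (edgeR adjusted p = 0.0377), with 3.93, 3.71 and 3.33 against 5.64, 6.14 and 7.00. Leaving out any library other than S100a16+/- replicate 3 ended both calls, with edgeR adjusted p from 0.101 to 0.157. With that replicate left out, 7 targets were higher, among them Junb, Fos and Cebpb, and 4 lower, beside 15.8% higher and 16.4% lower of all genes tested.

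Among 18 acute-phase genes tested, Cfb, which encodes complement factor B, rose and none fell. That is 5.56% of the list, beside 4.46% of all genes tested. Cfb stood at 49.1, 50.2 and 58.2 FPKM in S100a16+/- cells and at 22.6, 23.3 and 23.4 in WT, which is 1.23 ± 0.07 (SE) higher in log2 (edgeR adjusted p = 0.00295). Its call also held with each library left out. The list median was 1.05, with 17 of 18 genes above 0, but it was -0.06 without S100a16+/- replicate 3, where 6 genes were higher and 6 lower, against the same background shares. By library the median log2 ratio to the WT mean was 0.04, 0.09 and 1.22 in S100a16+/- replicates 1 to 3. The 6 lower genes, Fgb, Hpx, Fga, Cp, Fgg and Hamp, are typical hepatocyte products. Hepatocyte markers were low in S100a16+/- replicates 1 and 2, and their part in this was not tested.

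**Figure D4:**
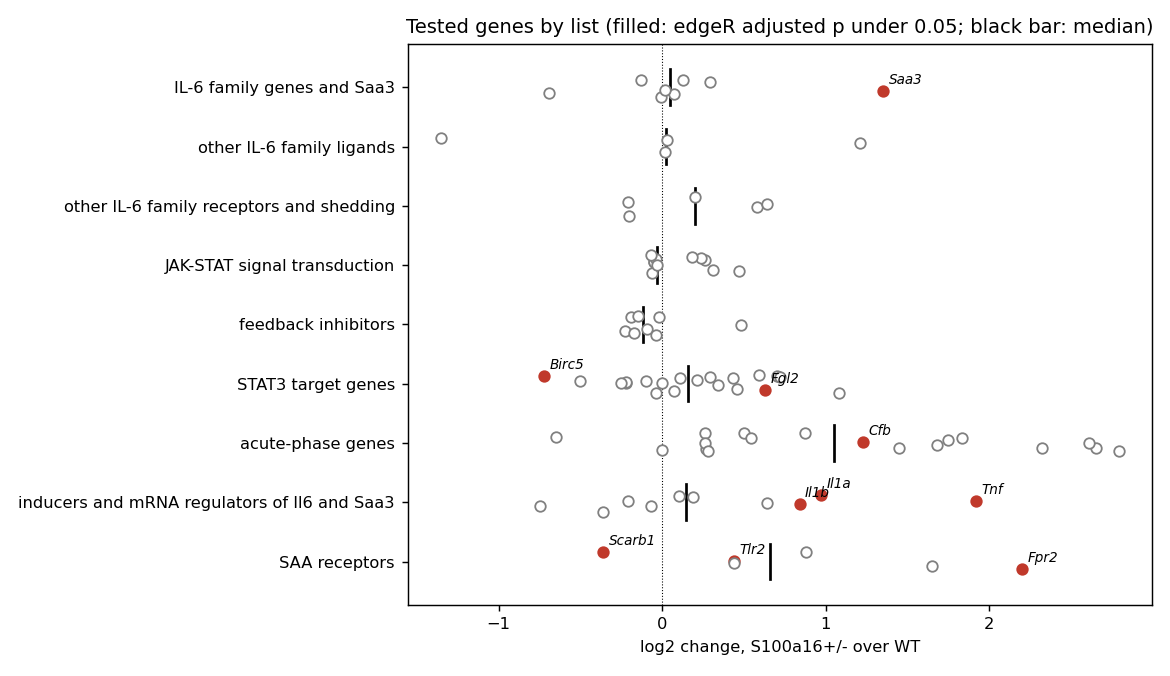
Log2 change over all 6 libraries of the tested genes in each list (1 circle a gene, filled where the edgeR adjusted p is under 0.05, black bar for the list median, vertical position within a row has no meaning). Saa3 at 1.35 and Cfb at 1.23 are called, and the lists of other ligands, receptors, transducers and feedback inhibitors hold no filled circle.

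Some cytokine genes that induce Il6 and Saa3 in many cells rose. Of 10 tested inducers and regulators 3 rose and none fell, or 30%, beside 4.46% of all genes tested. The list median was 0.15. Without S100a16+/- replicate 3, 4 were higher and 3 lower, beside 15.8% higher and 16.4% lower of all genes tested. Tnf, the tumour necrosis factor gene, stood at 59.2, 60.5 and 30.0 FPKM in S100a16+/- cells and at 12.9, 14.2 and 14 in WT (log2 change 1.92, edgeR adjusted p = 0.0288). Il1a and Il1b, the interleukin-1 genes, rose by 0.97 and 0.84 (edgeR adjusted p = 0.00865 and 0.0265). Leaving out any library other than S100a16+/- replicate 3 ended the calls of Tnf and Il1b (edgeR adjusted p from 0.076 to 0.144), and leaving out any WT library ended that of Il1a (0.0572 to 0.076). Macrophages are a known source of all 3, and the part of macrophage content, whose markers moved in both directions as given above, was not tested.

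Of 6 tested receptors for serum amyloid A, Fpr2 and Tlr2 rose and Scarb1 fell, or 50%, beside 4.46% of all genes tested. The list median was 0.66. Fpr2, a formyl peptide receptor gene of myeloid cells, had an FPKM of 42.3, 43.4 and 47.1 against 10.1, 10.2 and 9.62 in WT (log2 change 2.20, edgeR adjusted p = 0.000570). Tlr2, a toll-like receptor gene, rose by 0.44 (edgeR adjusted p = 0.0382). Scarb1, the lipoprotein scavenger receptor gene, fell by 0.36 on the log2 scale (edgeR adjusted p = 0.0331), with 17.9, 18.1 and 17.3 FPKM against 23.8, 23.5 and 23.6. Leaving out any library other than S100a16+/- replicate 3 ended the calls of Tlr2 and Scarb1 (edgeR adjusted p from 0.0872 to 0.184), and that of Fpr2 held in each case. In all, 10 of 15 alternatives ended the call of Tlr2, among them library totals in place of TMM, at 0.38 (edgeR adjusted p = 0.0612). Cd36, named after its values were seen, was high in S100a16+/- replicates 1 and 2, at 511 and 540 FPKM, and at 122 in replicate 3 and 124 to 136 in WT (edgeR adjusted p = 0.158). Without S100a16+/- replicate 3 its log2 change was 2.08 (edgeR adjusted p = 4.12e-05). In that fit 3 of the 6 receptors were higher and 1 lower, beside 15.8% higher and 16.4% lower of all genes tested.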

How the data were processed

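Messenger RNA was measured in 6 libraries, 3 per genotype. Each gene has a count and an FPKM in each library, per the file headers. The authors' counts are integers that carry no normalization, and every row named a gene. The authors' FPKM divides out gene length and sequencing depth, and is 0.0001 where the count was 0. Per the submitters' processing notes, StringTie 1.3.4d, HISAT2 2.0.4 and cutadapt 1.9 were used besides edgeR, UMI-tools and DESeq2. The sources used here do not state their roles or the genome build. The coordinates of all 10 members equal those of GENCODE M21 on GRCm38.

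Genes that reached an FPKM of 1 in 3 or more libraries were tested with edgeR 4.0.16 quasi-likelihood (R 4.3.3) on TMM-scaled counts, genotype being the only term. The p-values carry Benjamini-Hochberg adjustment over all genes tested, and a gene was called under 0.05. Each SE is the log2 change over the square root of F. When a library was left out, the tested genes were kept. Alternatives covered scaling, filters, DESeq2 1.42.0, limma 3.58.1, a replicate block and left-out libraries. The fits were run on simulated data with the same spread for every gene and no unlike library. Those runs do not show how the fits behave with a library such as S100a16+/- replicate 3. No set test was run.

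The members, lists and tests were chosen with earlier results of these data known. Named were all members, up to 6 called genes a list or else its 2 most abundant, the top markers, overlapping genes, Saa3 paralogs and the 5 profiles nearest to Saa3. Any further gene was picked with its values in view. The values of 1 listed gene are not reported here. Promoters were searched on both strands. Of the 9 marker lists, those of mesothelial cells, cholangiocytes, T and NK cells, and B and plasma cells summed to 10.1 to 91.7, 81.0 to 231, 2.03 to 6.92 and 0.441 to 3.03 FPKM in the S100a16+/- libraries, and to 70.2 to 93.1, 35.0 to 40.9, 8.10 to 8.52 and 2.63 to 2.78 in WT.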

Additional observations from a re-analysis of the deposited data

How the results depend on the processing

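The rise of Saa3 kept its direction in all 15 alternatives and its call in 14 of them, with log2 changes of 1.26 to 1.35 across scalings, filters and tools. The exception was the replicate block, in which the replicate number is a further term. Same-numbered libraries did not deviate together (correlations of -0.156, 0.053 and -0.081). With 3 libraries a genotype, and S100a16+/- replicate 3 unlike the others, this cannot show whether the numbers mark pairs. With the block Saa3 was at 1.35 (edgeR adjusted p = 0.0805) and S100a16 at -1.39 (edgeR adjusted p = 0.139). No gene was called with it, 0 members and 0 list genes included, although 2207 genes had an unadjusted p under 0.05. DESeq2, run without a block, called 1888 genes and 22 list genes, and no filter on low values left 243 and 5, with S100a16 at -1.36 (edgeR adjusted p = 0.0516).

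Leaving out 1 library gave 32 to 4115 called genes in place of 570, 1 to 3 called members and 2 to 43 called list genes in place of 9, each highest without S100a16+/- replicate 3. S100a16 ran from -1.63 to -1.23. Among the tested members that were not called, Il6ra was negative (-1.10 to -0.44 with a library left out) and Lif positive (0.11 to 0.41) in every alternative, and the sign of the others turned in at least 1. Left-out libraries moved Il6st from -0.04 to 0.33, Osmr from -0.19 to 0.19, Lifr from -0.24 to 0.01, Socs3 from -0.48 to 0.30 and Stat3 from -0.00 to 0.03. Socs3 was at -0.09 and -0.11 by limma with pseudocounts of 1 and 0.1 and at -0.07 with the block. Stat3 was at -0.04 with library totals and -0.03 by limma with either pseudocount. Other signs turned in Clcf1 (-0.02 with library totals and with the block, -0.05 and -0.07 by limma, -0.24 to 0.25 with a library left out), Ebi3 (-0.04 with library totals and by limma, -0.07 to 0.07 with a library left out), Grb2 (-0.22 to 0.21) and Ptpn1 (-0.10 to 0.02, both with a library left out), all uncalled. The cause was not tested. Calls that were higher made up 63.9% of all, 52.8% with library totals and 51.3% by limma. Il6 and Osm had 21 to 249 counts a library.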
